A study of Arabidopsis thaliana with 6 samples.

Results

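Cytokinin synthesis, breakdown and two-component signalling were followed between 2 pieces of the Arabidopsis thaliana root tip. The genes were taken by locus from 6 classes and numbered 39. They were the type-A response regulators ARR3 to ARR9 and ARR15 to ARR17, the receptors AHK2 to AHK4, the phosphotransfer proteins AHP1 to AHP6, the type-B response regulators ARR1, ARR2, ARR10, ARR11, ARR12, ARR14 and ARR18, the cytokinin oxidases CKX1 to CKX7, and the isopentenyltransferases IPT1, IPT2, IPT3, IPT5, IPT7 and IPT9. Each locus was matched to a probe set through the authors' deposited table, and 38 were measured among 22746 probe sets. No probe set was matched to CKX7 (AT5G21482), the cytosolic oxidase, so it was not analysed here. No measured member relied on a probe set shared with near-identical transcripts (s_at or x_at).

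Cytokinins are adenine-derived hormones. Isopentenyltransferases start their synthesis, LOG enzymes release the active bases, and cytokinin oxidases destroy them. AHK receptors bind the hormone and pass a phosphate by way of AHP proteins to the nucleus, where type-B response regulators switch on target genes. Among those targets are the type-A response regulators, which damp the pathway. In the root, cytokinin is known for promoting the change from division to differentiation at the upper edge of the meristem, against auxin, and for patterning the vascular cylinder.

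All samples were wild-type Col-0 seedlings aged 8 days, grown on vertical plates in continuous light and kept in RNAlater. Zone I was the terminal 0.5 mm of the root, holding the cap and the dividing cells, and zone II was a piece 1.5 mm long that took in the elongation zone and root hairs. There were 3 arrays per zone. Whether they stem from separately grown plants is not said in the labels, and the p-values therefore rest on the spread between arrays, which may be technical. The labels' growth notes also describe cell cultures of another genotype, to which no sample is assigned.

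The deposited signal intensities had the same trimmed mean on every array, and median signals lay between 132.1 and 149.4. Marker genes followed the labels. All 7 measured markers of dividing cells, root cap and stem cells were higher in zone I, and all 11 of root hair, endodermis, xylem and phloem were higher in zone II. Of 3 green-tissue markers only RBCS1A was measured, on an s_at probe set, at 139.5 to 409.3 in zone I and 705.2 to 2435 in zone II. Zone II array 1 stood apart in KN, a marker of dividing cells, at 337.8 against 3.10 and 23.0 on zone II arrays 2 and 3, and in the root cap marker SMB, at 109.8 against 3.15 and 3.07. CYCB1;1, BRN1 and FEZ, the other markers of those cells, were not highest there, and the stem cell markers PLT1 and PLT2 were lowest there. KN and SMB made up most of the summed marker signals on that array. These sums were 386.0 against 63.2 and 49.6 for dividing cells and 114.3 against 39.5 and 42.6 for the root cap.

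A gene was called at an adjusted p under 0.05 in a limma fit over all 22746 probe sets. Differences are log2 signal in zone II minus zone I, so positive values are higher in zone II, and zone signals are geometric means of 3 arrays. A log2 difference between dim signals can be large on little signal, so for dim genes a second difference, taken with 64 added to all signals, stands beside the plain one. Of the 38 genes, 11 (28.9%) were higher in zone II, where 18.1% of all probe sets were. Only 4 (10.5%) were higher in zone I, where 19.8% of all probe sets were. The 15 called genes in all compare with 37.9% of all probe sets called in either direction. The median difference of the 38 was 0.60 (0.27 with 64 added), and that of all probe sets was -0.04. The arrays of the zones did not overlap for 22 genes (57.9%), against 49.9% of all probe sets, and the 15 called genes were among them. For 12 genes both zone signals lay under 64. These shares are a description, with no test. Without zone II array 1 the counts were 12 and 4, with 35.7% of all probe sets called in either direction.

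**Figure D1:**
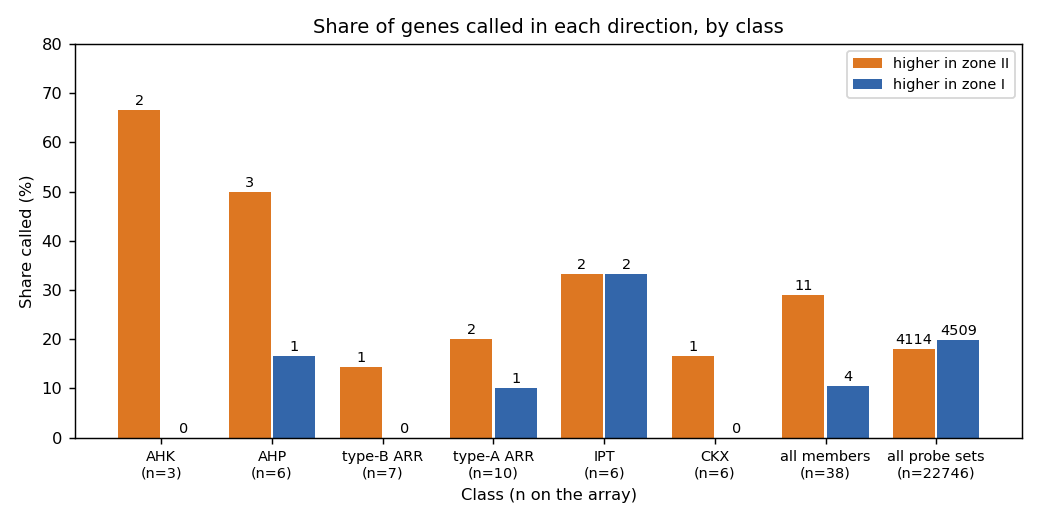
Share of genes called higher in zone II (orange) and in zone I (blue), in percent of those on the array, for each class, for the 38 cytokinin genes together and for all probe sets. The number above a bar is the count. The receptors and phosphotransfer proteins stand highest for zone II, with 2 of 3 and 3 of 6, and the isopentenyltransferases are split 2 and 2.

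Of the 3 receptors, AHK3 and AHK4 were higher in zone II, where 18.1% of all probe sets were, and AHK2 was not called. AHK3 (AT1G27320), the receptor best known for controlling meristem size, had signals of 305.7, 96.5 and 204.6 on the zone I arrays and 1253, 2273 and 1221 on the zone II arrays. Every zone II array lay far above every zone I array. The difference was 3.06 ± 0.41 (SE, n = 3 per zone; adjusted p = 0.000151), an 8.32-fold higher signal. AHK4 (AT2G01830), also named CRE1 or WOODEN LEG and needed for cell divisions in the vascular cylinder, had signals of 651.0, 829.4 and 1224 in zone I and 1435, 2450 and 2501 in zone II. Its zones did not overlap, although zone I array 3 came close to zone II array 1. It differed by 1.25 ± 0.28 (adjusted p = 0.00474). With the intensity trend of the fit removed, the adjusted p became 0.0550. The third receptor, AHK2 (AT5G35750), had signals of 114.7, 132.0 and 63.8 in zone I and 148.4, 284.9 and 277.4 in zone II. Its difference of 1.20 ± 0.46 was close in size to that of AHK4 and missed the threshold (adjusted p = 0.0611). It passed without zone II array 1 (1.51, adjusted p = 0.0281) and in the authors' deposited table (0.77, adjusted p = 0.0333). Dropping any other single array left AHK2 uncalled (adjusted p = 0.066 to 0.190).

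These pieces hold different mixtures of cells, and fewer cells of a type cannot be told apart from less RNA per cell. The 6 measured xylem and phloem markers were all higher in zone II, with a summed signal of 380.1 to 606.1 on the zone I arrays and 4423 to 7161 on the zone II arrays. Their part in the differences of the receptors and of the phosphotransfer proteins below was not tested.

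Of the 6 phosphotransfer proteins, AHP1, AHP2 and AHP3, which carry the phosphate on, were higher in zone II (18.1% of all probe sets were), and AHP5, also a carrier, was not called. AHP6, which cannot carry the phosphate and inhibits the relay, was higher in zone I (19.8% of all probe sets were). AHP1 (AT3G21510) had signals of 541.1, 192.7 and 1203 in zone I and 3262, 1694 and 2711 in zone II. It varied more among the zone I arrays than among those of zone II, with a SD of 1.32 against 0.49 on the log2 scale. The difference was 2.30 ± 0.52 (adjusted p = 0.00505). Removing the intensity trend gave an adjusted p of 0.0590, and dropping array 1 of each zone gave 0.0537. AHP2 (AT3G29350) had signals of 531.7, 293.7 and 347.7 in zone I and of 1278, 1143 and 1186 in zone II. Its zone II arrays lay close together and all above zone I (1.67 ± 0.25, adjusted p = 0.000357). AHP3 (AT5G39340) had signals of 1366, 978.3 and 890.5 in zone I and of 2496, 3443 and 4343 in zone II, again without overlap (1.66 ± 0.24, adjusted p = 0.000267). AHP2 and AHP3 thus differed by nearly the same factor, 3.17-fold and 3.15-fold, and both calls held under all 16 other settings of the fit.

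AHP6 (AT1G80100), known from the protoxylem and its neighbours, had signals of 98.2, 170.6 and 81.7 in zone I and of 14.4, 28.4 and 4.90 in zone II. All zone II arrays were under 64 and all zone I arrays above it. The difference was -3.14 ± 0.86 (adjusted p = 0.0137), or -1.16 with 64 added (adjusted p = 0.00390). The call ended when zone I array 2 was dropped (-2.83, adjusted p = 0.0702) and when array 1 of each zone was (-3.32, adjusted p = 0.0587). AHP5 (AT1G03430), a further carrier of the phosphate, had zone signals of 156.6 and 129.7 with overlapping arrays. Its difference was -0.27, with a 95% interval of -1.19 to 0.65, which does not reach the values of AHP1, AHP2 and AHP3. AHP4 (AT3G16360) was under 64 on all 6 arrays, at 1.91 to 45.3.

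**Figure D2:**
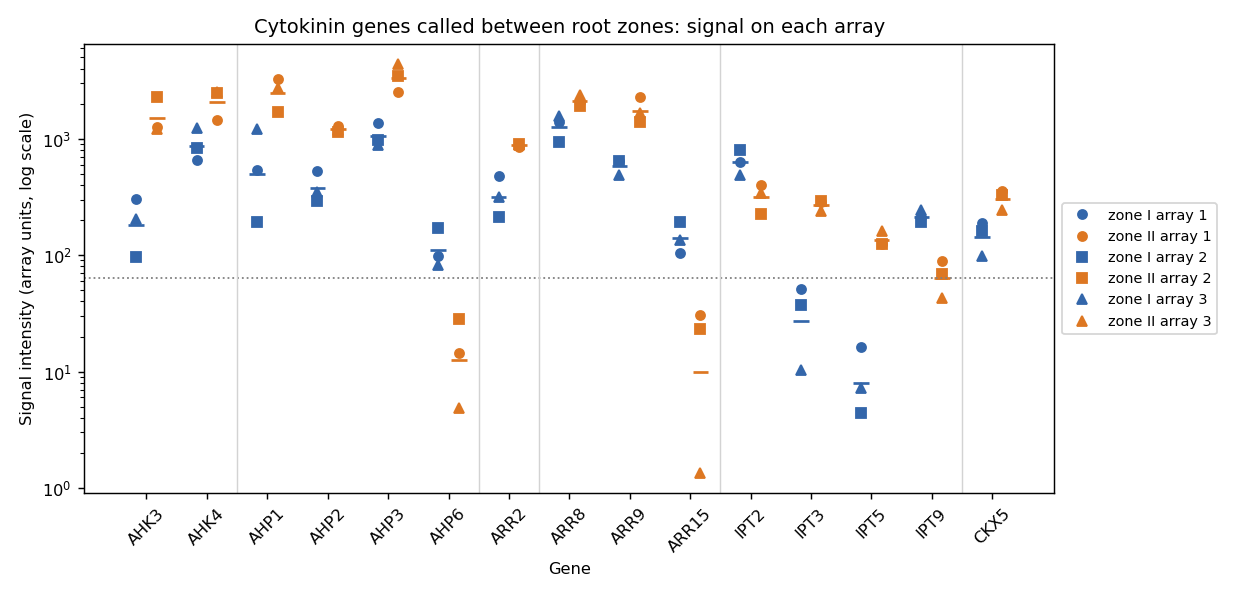
Signal intensity (log axis) of the 15 called cytokinin genes on each zone I array (blue) and zone II array (orange). Symbols mark the arrays, short lines the zone geometric means, the dotted line a signal of 64, and grey lines separate AHK, AHP, type-B ARR, type-A ARR, IPT and CKX. Every called gene has its zones apart, and the zone II signals of AHP6 and ARR15 and the zone I signals of IPT3 and IPT5 lie below 64.

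The type-B response regulators, the transcription factors at the end of the relay, gave 1 call among 7, higher in zone II (14.3%, against 18.1% of all probe sets). ARR2 (AT4G16110), known to act after AHK3 in leaf ageing, had signals of 475.1, 213.9 and 315.9 in zone I and 854.5, 906.0 and 890.6 in zone II. Its zone II arrays were nearly equal and lay above all of zone I. The difference was 1.48 ± 0.29 (adjusted p = 0.00218), a 2.78-fold higher signal, and the call held under all 16 other settings.

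ARR1, ARR10 and ARR12, the type-B factors known to carry most of the cytokinin response in roots, were above 64 on all arrays and none was called. ARR1 (AT3G16857) had signals of 741.8, 580.5 and 477.7 in zone I and 959.2, 1050 and 775.2 in zone II. The zones did not overlap, and the difference of 0.64 ± 0.23 just missed the threshold (adjusted p = 0.0518). ARR1 passed with the replicate block (adjusted p = 0.0425), with quantile normalization (0.0492), with zone I array 1 dropped (0.81, adjusted p = 0.0329), with zone II array 3 dropped (0.77, adjusted p = 0.0360) and in the authors' deposited table (0.57, adjusted p = 0.0228). ARR10 (AT4G31920) lay at 981.5, 1083 and 896.5 in zone I and at 1051, 1765 and 1671 in zone II. Zone II array 1 fell among the zone I values. Its difference of 0.57 had an adjusted p of 0.0734. Without that array ARR10 differed by 0.80 (adjusted p = 0.00706). Leaving out an array because it overlaps the other zone favours a lower p-value, so no call is drawn from this. ARR10 stayed uncalled when any other single array was dropped (adjusted p of 0.105 or more). ARR12 (AT2G25180) had zone signals of 1139 and 1418 without overlap, a difference of 0.32 and a 95% interval of -0.10 to 0.73.

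The remaining type-B genes were dim. ARR11 (AT1G67710) had signals of 1.39, 11.2 and 2.22 in zone I and of 108.5, 215.6 and 3.72 in zone II. Both bright values came from zone II arrays 1 and 2, while zone II array 3 stayed within the zone I range. Its difference of 3.77 (1.11 with 64 added) did not pass (adjusted p = 0.0789), and it was 5.55 with an adjusted p of 0.00566 without zone II array 3. It was also called in the authors' deposited table (1.29, adjusted p = 0.0395). ARR14 (AT2G01760) had signals of 63.5, 86.9 and 109.1 in zone I and 2.57, 38.6 and 59.6 in zone II, a difference of -2.22 (-0.66 with 64 added) that did not pass (adjusted p = 0.149). ARR18 (AT5G58080) lay between 1.43 and 36.1 on all arrays. With single arrays left out, 1 to 3 type-B genes were called, while 31.2% to 36.5% of all probe sets were called in either direction.

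Of the 10 type-A response regulators, the feedback inhibitors, 2 were higher in zone II (18.1% of all probe sets) and 1 was higher in zone I (19.8% of all probe sets). The median difference of the class was -0.25 (-0.01 with 64 added). The genes fall into closely related pairs, ARR3 with ARR4, ARR5 with ARR6, ARR7 with ARR15, ARR8 with ARR9 and ARR16 with ARR17, and are given in that order. Whether the partners of a pair differed in their zone difference was not tested.

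ARR3 (AT1G59940) and ARR4 (AT1G10470) overlapped between the zones. ARR3 had zone signals of 1172 and 1198, a difference of 0.03 with a 95% interval of -0.72 to 0.78. ARR4, which is known to bind phytochrome B, had zone signals of 520.1 and 495.1 and a difference of -0.07 with an interval of -0.70 to 0.56. Neither interval reaches a log2 difference of 1 in either direction.

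ARR5 (AT3G48100), whose promoter is in wide use as a cytokinin reporter, had signals of 830.2, 770.2 and 327.6 in zone I and of 951.9, 226.2 and 351.5 in zone II. Each zone held bright and dim arrays, and the zones overlapped. The difference was -0.49 with a 95% interval of -1.60 to 0.62 (adjusted p = 0.503). Its partner ARR6 (AT5G62920) had signals of 133.6, 143.6 and 93.1 in zone I and of 299.2, 290.8 and 159.5 in zone II. The zones did not overlap, and the difference of 0.99 ± 0.41 missed the threshold (adjusted p = 0.0813). It passed without zone II array 3 (1.28, adjusted p = 0.0316) and in the authors' deposited table (1.12, adjusted p = 0.0146). Dropping any other single array left ARR6 uncalled (adjusted p = 0.104 to 0.220).

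ARR15 (AT1G74890), which with ARR7 is known to be induced by auxin in the embryonic root stem cell region, was the type-A gene higher in zone I. Its signals were 104.2, 192.9 and 134.5 in zone I and 30.8, 23.4 and 1.35 in zone II. All zone II arrays were under 64, and the lowest lay far under the other two. The difference was -3.81 ± 1.14 (adjusted p = 0.0212), or -1.33 with 64 added (adjusted p = 0.00213). The call ended without zone I array 1 (-4.02, adjusted p = 0.0526), 2 (-3.58, adjusted p = 0.0853) or 3 (-3.84, adjusted p = 0.0602). Removing the intensity trend ended it too (adjusted p = 0.0675). ARR7 (AT1G19050) lay at 34.5, 63.4 and 117.2 in zone I and at 64.5, 27.4 and 41.1 in zone II. Its arrays overlapped, and its difference of -0.61 did not pass (adjusted p = 0.572).

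ARR8 and ARR9 were both higher in zone II. ARR9 (AT3G57040) had signals of 640.4, 642.1 and 485.7 in zone I and of 2267, 1394 and 1666 in zone II. The zones were well apart, with a 2.98-fold difference (1.57 ± 0.23, adjusted p = 0.000291) that was called under all 16 other settings. ARR8 (AT2G41310) had signals of 1398, 928.8 and 1573 in zone I and of 2072, 1900 and 2356 in zone II. The gap between the zones was smaller than in ARR9, and the difference was 0.73 ± 0.22 (adjusted p = 0.0223). The call ended when zone I array 2 (0.50, adjusted p = 0.0892) or zone II array 3 (0.65, adjusted p = 0.0650) was dropped, and when the intensity trend was (adjusted p = 0.119). Dropping array 1 of each zone also ended it (0.81, adjusted p = 0.058).

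ARR16 (AT2G40670) and ARR17 (AT3G56380) were dim but for a single array. ARR16 had signals of 18.4, 37.3 and 41.2 in zone I and of 98.0, 2.33 and 5.04 in zone II. ARR17 lay at 0.84, 25.5 and 20.6 in zone I and at 105.5, 0.78 and 2.22 in zone II. In both, zone II array 1 was the only one above 64. That array also had the highest ARR5 signal, and it is the array on which KN and SMB were highest in zone II. Of the 38 genes, 16 had their highest zone II signal on that array, and the share of all probe sets was not counted. The other measured markers of zone I (CYCB1;1, BRN1, FEZ, PLT1 and PLT2) were not highest on zone II array 1. The part of dividing or cap cells in the ARR16 and ARR17 values was not tested. The differences of ARR16 and ARR17, -1.54 and -0.42, did not pass (adjusted p = 0.421 and 0.893), and were -3.15 and -2.53 with zone II array 1 dropped. With array 1 of each zone dropped that of ARR17 was -4.12 (adjusted p = 0.0498), between signals that were all under 64.

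**Figure D3:**
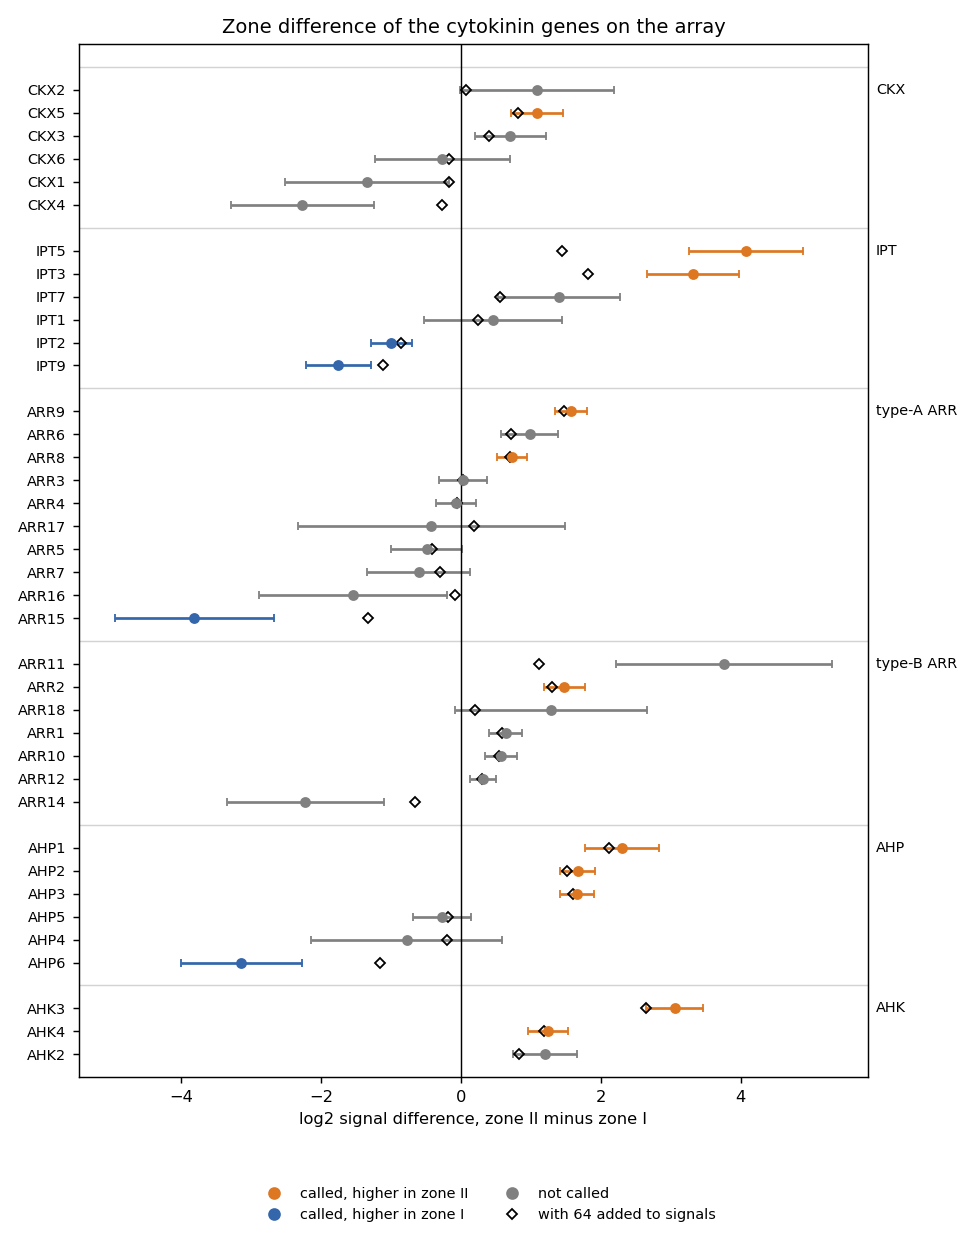
Difference in log2 signal (zone II minus zone I) of each of the 38 cytokinin genes, grouped by class, with its standard error as a bar. Orange and blue points are called, grey points are not, and open diamonds give the difference with 64 added. AHK3, AHP1, AHP2, AHP3, ARR2 and ARR9 keep most of their difference with 64 added, while those of IPT5, IPT3, ARR15 and AHP6 shrink.

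Of the 6 isopentenyltransferases, 2 were higher in zone II and 2 in zone I, or 33.3% each way against 18.1% and 19.8% of all probe sets. IPT3 and IPT5, which act on free ATP or ADP in the main route to cytokinin, were higher in zone II, while IPT1 and IPT7, of the same type, were not called. IPT2 and IPT9, which modify transfer RNA, were higher in zone I. IPT3 (AT3G63110), known from the phloem, had signals of 51.5, 37.4 and 10.3 in zone I and of 286.0, 289.4 and 238.2 in zone II. All zone I arrays were under 64 and the zone II arrays lay close together. The difference was 3.32 ± 0.66 (adjusted p = 0.00216), or 1.81 with 64 added. IPT5 (AT5G19040), known from the columella of the root cap and from young lateral roots, had signals of 16.1, 4.41 and 7.27 in zone I and 123.9, 123.6 and 162.2 in zone II. It was thus under 64 in the piece that held the cap and above it in the other. The difference was 4.08 ± 0.81 (adjusted p = 0.00222), or 1.45 with 64 added. Both calls held in every other setting that kept the gene.

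IPT9 (AT5G20040) had signals of 211.7, 191.7 and 243.3 in zone I and of 88.7, 68.4 and 42.7 in zone II. Its zone I arrays were close together and above all of zone II. The difference was -1.75 ± 0.47 (adjusted p = 0.0116), or -1.11 with 64 added, and the call ended without zone I array 3 (-1.66, adjusted p = 0.0572). IPT2 (AT2G27760) had signals of 626.2, 794.1 and 490.1 in zone I and 401.0, 226.4 and 339.4 in zone II. It was 1.99-fold higher in zone I without overlap (-0.99 ± 0.30, adjusted p = 0.0210). Dropping zone I array 1 (-0.99, adjusted p = 0.0609), zone I array 2 (-0.82, adjusted p = 0.0984) or zone II array 2 (-0.76, adjusted p = 0.0754) ended the call, as did dropping the intensity trend (adjusted p = 0.0761). IPT1 (AT1G68460) lay between 12.6 and 112.1 over the 6 arrays with overlap (0.46, adjusted p = 0.763). IPT7 (AT3G23630) lay at 12.9 to 29.1 in zone I and at 28.1 to 142.7 in zone II, with its highest value on zone II array 2 and a difference of 1.41 (0.56 with 64 added, adjusted p = 0.243).

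Of the 6 measured cytokinin oxidases 1 was called, higher in zone II (16.7%, against 18.1% of all probe sets), and 4 had both zone signals under 64. CKX5 (AT1G75450) had signals of 187.0, 161.4 and 97.6 in zone I and of 356.9, 325.1 and 242.4 in zone II. The zones did not overlap, and the difference was 1.09 ± 0.37 (adjusted p = 0.0396). This call was the least stable of the 15 over the settings tried. It ended without zone I array 2 (1.17, adjusted p = 0.0659) or 3 (0.81, adjusted p = 0.137), without zone II array 1 (0.97, adjusted p = 0.104) or 2 (1.04, adjusted p = 0.105), and with equal medians (1.01, adjusted p = 0.0525). The call also ended without the intensity trend (adjusted p = 0.0644) and with array 1 of each zone dropped (1.16, adjusted p = 0.0922). CKX3 (AT5G56970) was somewhat higher on every zone II array, at 97.7 to 133.1 against 60.9 to 73.9, but its difference of 0.71 did not pass (adjusted p = 0.317). CKX6 (AT3G63440) varied in both zones, from 16.96 to 134.7 in zone I and from 19.6 to 134.4 in zone II.

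The other oxidases stayed under 64 on all 6 arrays. CKX4 (AT4G29740) had signals of 12.2, 30.9 and 9.88 in zone I and of 3.10, 3.33 and 3.21 in zone II. Its difference of -2.27 shrank to -0.27 with 64 added and passed only in the fit without the intensity trend (adjusted p = 0.0183, against 0.109). CKX1 (AT2G41510) lay between 2.40 and 44.6 and CKX2 (AT2G19500) between 1.37 and 10.4. At such signals a zone difference in either was not detectable.

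The authors' deposited table of their own zone comparison called 19 of the 38 genes at an adjusted p under 0.05, where it called 45.6% of all its probe sets. All 15 genes called in the limma fit were among them with the same direction. The other 4 were AHK2, ARR1, ARR6 and ARR11, each higher in zone II. Its log2 fold changes were smaller for the dim genes, with 1.18 for IPT5, -1.36 for ARR15 and -1.26 for AHP6 in the authors' deposited table.

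Around these genes, 35 others of cytokinin metabolism, transport and response were listed, of which 31 were measured. Of these, 6 were higher in zone II (18.1% of all probe sets) and 4 were higher in zone I (19.8% of all probe sets), with a median difference of 0.12. CYP735A1 and CYP735A2, the hydroxylases that make trans-zeatin forms, were both higher in zone II. CYP735A1 had signals of 36.3, 16.5 and 21.0 in zone I and of 315.9, 318.8 and 106.0 in zone II (3.24 ± 0.66, adjusted p = 0.00253, or 1.72 with 64 added). CYP735A2 had signals of 4.21 to 9.10 in zone I and of 29.8 to 72.2 in zone II (2.76, or 0.67 with 64 added, adjusted p = 0.0351). It kept its call without zone II array 3 and lost it without any other single array, with values of 2.39 to 2.94 and adjusted p-values of 0.0542 to 0.114, with quantile normalization (adjusted p = 0.0502), and in the authors' deposited table (0.36, adjusted p = 0.166). Dropping array 1 of each zone also ended the call (2.64, adjusted p = 0.137).

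The exporter ABCG14, which loads cytokinin made in roots for the way to the shoot, had signals of 222.7 to 263.4 in zone I and 972.0 to 1449 in zone II (2.41 ± 0.24, adjusted p = 2.45e-05). The importer PUP14, named after its values were seen, had signals of 260.2 to 332.1 and 1083 to 1316 (2.06 ± 0.22, adjusted p = 3.45e-05). Both transporters were thus about as far apart between the zones as AHP1, with narrower spread. The third transporter listed, ENT3, was not matched to a probe set.

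Of the 8 LOG genes, LOG4 was higher in zone I, and LOG7 and LOG8, named after their values were seen, were higher in zone II. LOG4, known from the xylem precursor cells of the meristem, had signals of 191.5, 278.6 and 189.8 in zone I and of 22.7, 33.8 and 14.3 in zone II (-3.28 ± 0.60, adjusted p = 0.00126, or -1.69 with 64 added). LOG7 had zone signals of 190.1 and 456.6 (1.27, adjusted p = 0.0127) and LOG8 of 592.9 and 902.2 (0.61, adjusted p = 0.0283). LOG7 was no longer called when zone I array 2 was dropped (1.10, adjusted p = 0.0510), and LOG8 when any 1 of the 6 arrays was (0.58 to 0.63, adjusted p = 0.0501 to 0.0788). With array 1 of each zone dropped, neither LOG7 nor LOG8 was called (adjusted p = 0.0747 and 0.0827). LOG8 also lost its call with equal medians (adjusted p = 0.0529) and without the intensity trend (adjusted p = 0.0831). LOG4, AHP6 and ARR15 were each above 64 on all zone I arrays and below it on all zone II arrays. So were the zone I markers CYCB1;1, PLT1 and PLT2, while KN, SMB, BRN1 and FEZ were not. KN and SMB were above 64 on zone II array 1 (337.8 and 109.8). BRN1 and FEZ were below it on zone I array 1 (49.7 and 41.4). The share of all probe sets with this pattern was not counted.

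The cytokinin response factors, transcription factors of the AP2/ERF family, had 2 calls among 5 measured, both higher in zone I (19.8% of all probe sets were). CRF3 had signals of 545.3, 576.4 and 560.6 in zone I and of 243.2, 111.7 and 158.7 in zone II (-1.78 ± 0.33, adjusted p = 0.00136). CRF2, named after its values were seen, had zone signals of 589.2 and 185.5 (-1.67, adjusted p = 0.00332). CRF6, also named after its values were seen, lay the other way (3.04, adjusted p = 0.0593) and passed with 64 added (1.05, adjusted p = 0.0334), as did CRF1 toward zone I (-0.83, adjusted p = 0.0382, against -2.16 and 0.0971). In the authors' deposited table CRF1 was called (-0.67, adjusted p = 0.033) and CRF6 was not (0.50, adjusted p = 0.083). UGT85A1, which can add glucose to zeatin, had signals of 530.3, 479.7 and 299.9 in zone I and of 6.30, 72.3 and 136.9 in zone II (-3.42 ± 0.93, adjusted p = 0.0132, or -1.98 with 64 added). Its call ended when zone I array 1 (-3.26, adjusted p = 0.0574) or 2 (-3.33, adjusted p = 0.0559) was dropped, and without the intensity trend (adjusted p = 0.0773). None of the 4 measured KMD genes, whose F-box proteins mark type-B regulators for breakdown, nor of the 7 further phosphorelay and IPT genes was called by limma, none had an unadjusted p under 0.05, and the authors' deposited table called none. LOG2, like ARR16 and ARR17, stood out on zone II array 1: it had a signal of 266.7 there and 1.82 and 2.62 on zone II arrays 2 and 3.

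**Figure D4:**
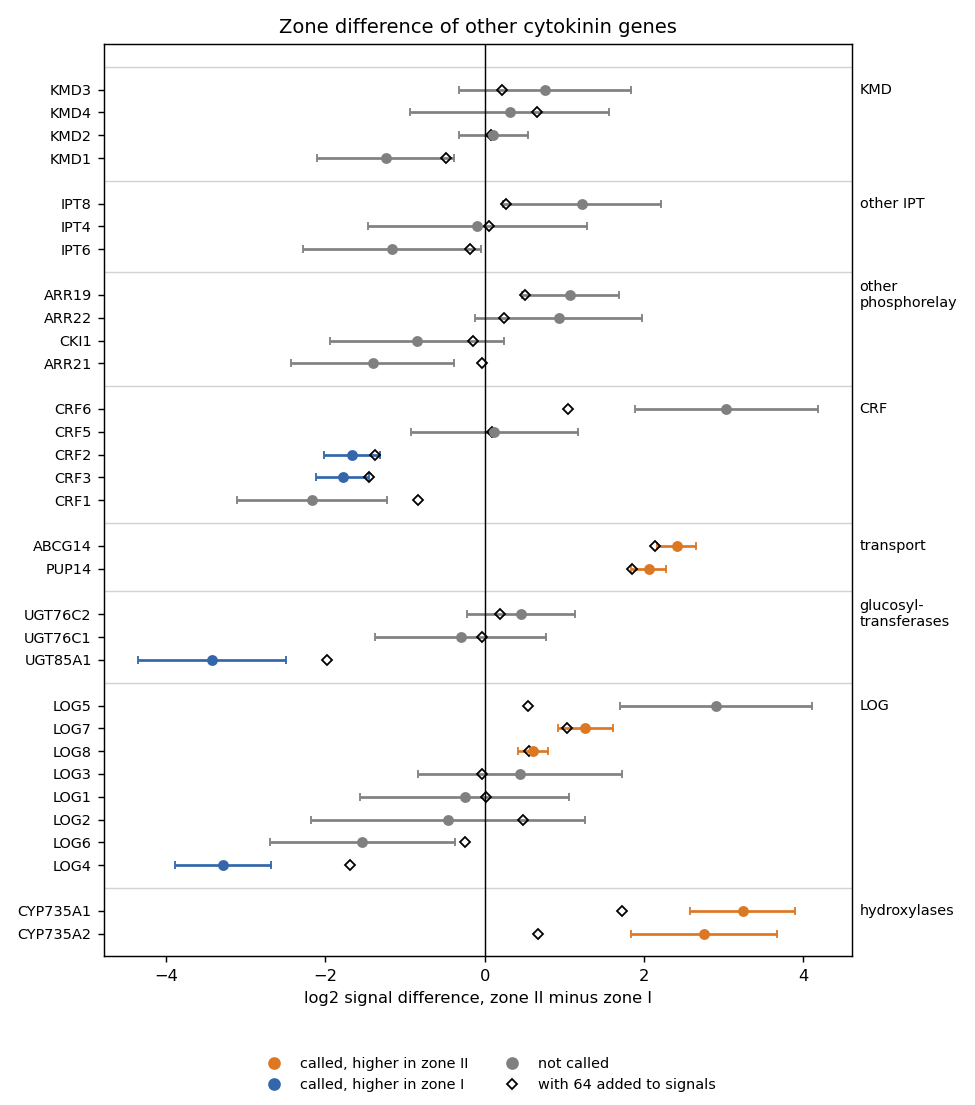
Difference in log2 signal (zone II minus zone I) of the 31 other cytokinin genes measured, grouped by function, with its standard error as a bar and the difference with 64 added as an open diamond. Orange and blue points are called and grey points are not. The hydroxylases and transporters lie to the right, and LOG4, UGT85A1, CRF2 and CRF3 to the left.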

How the data were processed

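The authors deposited signal intensity values of 6 arrays, made with Affymetrix Expression Console and MAS5 per the submitters' processing notes. No source used here names versions, array design or genome build. The deposited log2 fold changes, p-values and adjusted p-values of the authors' own zone comparison come with no stated test or direction. They were read as zone II relative to zone I, since they correlated with that difference (r = 0.87 across probe sets, which are not independent).

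Log2 of the intensity was fitted without offset or filter in limma 3.58.1 (R 4.3.3; eBayes with intensity trend, no block, two-sided, Benjamini-Hochberg over 22746 probe sets, 64 controls left out), and the fit was tested on simulated data. Each locus had 1 probe set. The genes, the lists, the tests and the naming rule were chosen with earlier results of these data known. The rule named every member, and of the other cytokinin genes the 3 called with the largest difference each way. Same-numbered arrays did not deviate together between the zones (r = 0.004 to 0.04), so the numbers were not taken as pairs. No coordinates or sequences are printed, as none were matched here. Figures were drawn with matplotlib 3.10.9 in Python 3.11.15. The number of arrays limits precision.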

Additional observations from a re-analysis of the deposited data

How the results depend on the processing

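Over 16 other settings of the fit and the authors' deposited table, 227 of 252 values of the 15 called genes kept their direction and call, 25 lost the call and none reversed. AHK3, AHP2, AHP3, ARR2, ARR9, IPT3 and IPT5 kept theirs in every setting that held them. With single arrays left out, 31.2% to 36.5% of all probe sets were called in either direction, against 37.9% with all 6 arrays. In these fits 9 to 13 genes were called higher in zone II and 1 to 4 higher in zone I. The 1 was left without zone I array 2, where 31.3% of all probe sets were called. By class these ranges were, for zone II and zone I, 1 to 2 and 0 to 1 for type-A ARR, 2 to 3 and 0 for AHK, 3 and 0 to 1 for AHP, 1 to 3 and 0 for type-B ARR, 0 to 1 and 0 for CKX, and 2 and 1 to 2 for IPT, and for the other cytokinin genes 3 to 7 and 3 to 5. Without the intensity trend 7 genes were higher in zone II, with 1 type-A ARR, 1 AHK and no CKX (0) among them, and 0 type-A ARR, 1 CKX and 1 IPT were higher in zone I, while 31.1% of all probe sets were called. The filter at the 40th percentile, after which 58.3% of the probe sets left were called, kept 22 genes. Of these, 13 were higher in zone II (2 type-B ARR and 1 IPT among them) and 2 higher in zone I (0 of them type-A ARR or AHP). The called genes ARR15, AHP6 and IPT5 were removed by this filter and so were not tested under it. Without the first array of both zones, type-A ARR counted 1 and 2, AHP 0 in zone I, type-B ARR 2 and CKX 0 in zone II, and the other genes 3 in zone II. In that fit 31.6% of all probe sets were called. Type-B ARR counted 3 with the replicate block, 2 with quantile normalization, 4 with array weights and 3 in the authors' deposited table, and CKX 0 with equal medians. The shares of all probe sets called in these settings were 37.1%, 38.1%, 39%, 45.6% and 38%, in that order. In the replicate block fit 13 genes were higher in zone II and 4 in zone I, ARR1 and ARR11 were gained and CYP735A2 was lost (adjusted p = 0.0523).

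Only uncalled genes changed sign. ARR3 did so with equal medians (-0.041) and array weights (-0.048). With single arrays left out, differences ran from -0.38 to 0.28 for ARR3, -0.29 to 0.12 for ARR4, -2.53 to 1.01 for ARR17, -1.56 to 0.67 for AHP4, -1.21 to 0.43 for CKX6 and -0.34 to 1.24 for IPT1. ARR17 also lay at 0.18 and 0.19 with 16 and 64 added. In the authors' deposited table ARR16 lay at 0.29, ARR17 at 0.21, AHP4 at 0.004, CKX2 at -0.085 and CKX6 at 0.072. The cause of these changes was not tested. Signals under 64 in both zones limit 12 genes.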
